A study of Mus musculus with 12 samples.

Results

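The 10 genes described here are transcription factors and effectors of the integrated stress response: Atf4, Atf5, Atf3, Ddit3 (which encodes CHOP), Cebpb, Trib3, Chac1, Nupr1, Ddit4 and Sesn2. They were taken by gene symbol from the expression tables of all 12 libraries, and they are 10 of the 53932 gene identifiers listed there. All 10 met the expression filter and are among the 16982 genes tested. Trib3, Chac1 and Cebpb would not have met it without the Glioblastoma libraries, so their higher level there is given as a description, with no test.

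In the integrated stress response, kinases that sense amino acid shortage, unfolded protein in the endoplasmic reticulum (ER), double-stranded RNA or lack of heme phosphorylate the translation factor eIF2. Most protein synthesis then slows, while the mRNA of ATF4 is translated more. ATF4 binds DNA with a partner such as a C/EBP protein and raises genes of amino acid uptake and synthesis, and with prolonged stress it raises Ddit3, whose product CHOP is known for its part in cell death. ATF4 protein is set largely by translation, so transcript levels do not measure its activity.

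Cultured cells of C57BL/6 mice gave the total RNA that was sequenced, with 3 libraries in each of 4 groups, and the design text names them neural stem cells, glioblastoma, astrocytes and MIM-treated astrocytes. The series concerns one-carbon metabolites and cell identity. NSC are neural stem cells from cortex of embryonic day 14.5, grown as neurospheres in Neurobasal with B27 and 20 ng/mL each of EGF and FGF2. Astrocytes and MIM-Astrocytes carry the same tissue and age labels. The medium of Astrocytes was DMEM-F12 with B27, Glutamax and 10% heat-inactivated serum. The protocol describes astrocytes from sorted postnatal cortex and astrocytes differentiated from neurospheres, and which source was used for these libraries is not given in the labels. MIM-Astrocytes were astrocytes moved, per the protocol, to MIM, a serum-free mix of DMEM-F12 and Neurobasal with B27, N2, 20 ng/mL FGF2 and up to 6 metabolites, and collected by day 5. The metabolites are methionine, threonine, glycine, cysteine, putrescine and S-adenosylmethionine, and the combination used here is not stated. The loss of serum, the added FGF2, the base medium and the metabolites therefore cannot be told apart in MIM-Astrocytes against Astrocytes. Glioblastoma is labelled with cerebella and E18.5. Its genotype, driver and culture medium are not given in the sources used here. Tumour state, brain region, age and culture conditions therefore cannot be told apart in any comparison with Glioblastoma.

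Each value is an FPKM, that is, fragments relative to the length of the transcript and to all mapped fragments, so levels can be compared between genes. Whether the libraries within a group derive from separate cultures or mice is not stated, and every p-value here rests on the spread among these libraries alone, which may be technical. The files hold no counts, and the depth is unknown. The authors' interval around a value reached 8.19% to 10.2% of it to either side for genes near 10 FPKM and 24.0% to 31.5% near 1 FPKM. The 7 astrocyte markers summed to 1345 to 1526 FPKM in Astrocytes, 1178 to 1424 in MIM-Astrocytes and 401 to 425 in Glioblastoma. In MIM-Astrocytes 3 of the 7 were higher and 2 lower than in Astrocytes, with differences of log2(FPKM + 1) from -4.95 to 1.925. Gfap and Aqp4 were high in Astrocytes (258 ± 16.1 and 397 ± 27.7 FPKM, mean ± SD, n = 3) and low in Glioblastoma (3.20 ± 0.310 and 0.125 ± 0.0285, n = 3), but Slc1a3, which makes up nearly all of the Glioblastoma sum, did not differ past the threshold (399.6 ± 11.2 FPKM in Glioblastoma, 396 ± 32.4 in Astrocytes, limma adjusted p = 0.907). None of 7 microglial or 5 endothelial and mural markers averaged 1 FPKM in any group. The 6 meningeal fibroblast markers summed to 155 to 185 FPKM in the Astrocytes libraries, nearly all of it Ogn, and to 3.74 at most elsewhere. Col1a1 was also higher in Astrocytes (2.69 ± 0.655 FPKM, at most 0.289 in any library of the other groups), while Lum was at 0 there and Col1a2 and Dcn stayed below 0.1 FPKM. The 4 ependymal markers summed to 0.492 to 0.704 FPKM in Glioblastoma, 2.45 to 2.84 in NSC, 12.1 to 14.1 in MIM-Astrocytes and 38.9 to 48.2 in Astrocytes. Their part in the results below was not tested. In these bulk samples, fewer cells of a type and less RNA per cell cannot be told apart.

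ATF4 dimers bind a composite C/EBP-ATF element, searched here as TGATGNAA or TTNCATCA on the other strand, so the promoters of the members were read for it. The windows ran from 250 bases before to 50 bases after each RefSeq start (GRCm38.p6), and all 10 genes had at least 1. The element was found in the windows of 4 members, against 3.97% of 32851 windows of the same length. The 4 sites are printed 5′ to 3′ on the strand of the gene, each with 11 bases on either side, and the capitals mark the element.
Trib3, chr2:152344028-152344057, minus strand: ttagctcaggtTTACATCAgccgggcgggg
Chac1, chr2:119351038-119351067, plus strand: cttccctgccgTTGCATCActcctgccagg
Nupr1, chr7:126625562-126625591, minus strand: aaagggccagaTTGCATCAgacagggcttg
Atf3, chr1:191183425-191183454, minus strand: ccttctcgcacTTGCATCAccaagtccgcg
The element lies 15 to 22 bases into the transcribed part in Trib3, at -193 to -186 in Chac1 and at -110 to -103 in Nupr1 and in Atf3, counted from the RefSeq start. In Nupr1 it lies within an exon of a longer GENCODE transcript, and none of the other 3 lies in a GENCODE exon. Trib3, Chac1, Nupr1 and Atf3 are also the 4 members with the widest range of levels. The highest group mean was 473, 250, 202 and 37.2 times the lowest for these genes, and at most 11.8 times for the others. Their lowest means, all in NSC, were 0.071, 0.164, 0.435 and 0.139 FPKM, the lowest among the 10 genes, and the wide ratios rest on these low values. Trib3 and Chac1 met the filter only through the Glioblastoma libraries. A relation between the element and the range was not tested. A cyclic AMP response element variant, TNACGTCA (TGACGTNA on the other strand), was found in the Atf3 window at -10 to -3 and in 2.93% of all windows. An AP-1 site, TGANTCA, which reads the same on both strands, was found in the Ddit3 window at -242 to -236 and in 7.81% of all windows. None of these matches overlaps another, and a match of letters is a description of the sequence only.

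For Chac1, whose level ranged 250-fold between groups, the stretch from 250 to 14 bases before the start (chr2:119350992-119351228, plus strand) is printed to show the surroundings of the element, again in capitals.
Chac1 upstream: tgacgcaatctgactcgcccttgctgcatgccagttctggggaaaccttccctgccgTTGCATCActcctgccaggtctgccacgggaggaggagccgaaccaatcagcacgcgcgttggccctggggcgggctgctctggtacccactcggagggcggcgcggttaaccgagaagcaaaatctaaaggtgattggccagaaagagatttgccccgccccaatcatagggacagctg

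Atf4 (ENSMUSG00000042406.8, chromosome 15, 80255184 to 80257541, plus strand, GRCm38) encodes the central transcription factor of the response, and its mean was the highest of the 10 in each of the 4 groups, though in Astrocytes by little (24.6 ± 4.96 FPKM, and 22.8 ± 2.25 for Ddit3). It stood at 231, 221 and 235 FPKM in the Glioblastoma libraries and at 46.7, 53.6 and 51.2 in MIM-Astrocytes. In NSC it stood at 42.2, 42.7 and 36.5 FPKM and in Astrocytes at 22.7, 30.2 and 20.8. No pair of groups overlapped. Differences here and below are of log2(FPKM + 1), each with its SE. This scale understates the change of weakly expressed genes, so ratios of mean FPKM are given too. Against NSC, Atf4 was higher in Glioblastoma by log2 2.47 (SE 0.12, 5.65-fold, limma adjusted p = 3.48e-08). In MIM-Astrocytes it was higher than in Astrocytes by 1.03 (SE 0.12, 2.06-fold, adjusted p = 3.65e-05), and the ratio of single libraries ran from 1.55 to 2.58. NSC also exceeded Astrocytes (log2 0.71, SE 0.12, adjusted p = 0.000392). MIM-Astrocytes and NSC, the neighbours in the order of levels, missed the threshold (log2 0.31, SE 0.12, adjusted p = 0.0504), and that difference passed it without Astrocytes library 2 or 3 or MIM-Astrocytes library 1 (adjusted p = 0.00673, 0.0312 and 0.0489). Over all alternatives its adjusted p ran from 0.00673 to 0.159.

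Atf5 (ENSMUSG00000038539.15, chromosome 7, 44812256 to 44816658, minus strand) encodes a close relative of ATF4 whose mRNA is also translated more when eIF2 is phosphorylated. Its levels were 60.0, 64.3 and 59.1 FPKM in Glioblastoma and 17.3, 26.4 and 20.3 in MIM-Astrocytes. They were 10.3, 11.4 and 8.89 FPKM in Astrocytes and 6.06, 5.29 and 4.22 in NSC. The 4 groups did not overlap, and NSC came last in their order. Atf5 in MIM-Astrocytes was above Astrocytes by log2 0.98 (SE 0.15, 2.10-fold, adjusted p = 0.000257) and above NSC by 1.84 (SE 0.15, adjusted p = 3.80e-06). NSC was below Astrocytes by a log2 difference of -0.86 (SE 0.15, adjusted p = 0.000519). Glioblastoma exceeded NSC 11.8-fold (log2 3.34, SE 0.15, adjusted p = 1.97e-08). The gene overlaps Nup62 and Il4i1 on the opposite strand, and whether the libraries keep strand is not stated, so their reads are not separated from those of Atf5.

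Atf3 (ENSMUSG00000026628.13, chromosome 1, 191170296 to 191218039, minus strand) encodes a stress-induced factor that can repress its targets and that many other signals raise too. Its levels fell into a high and a low pair of groups. Glioblastoma had 5.36, 5.22 and 4.97 FPKM and Astrocytes 5.30, 5.51 and 4.47. MIM-Astrocytes had 0.517, 0.481 and 0.266 FPKM and NSC 0.163, 0.173 and 0.0824. Glioblastoma and Astrocytes overlapped and did not differ past the threshold (log2 0.02, SE 0.09, adjusted p = 0.807). The sign of that small difference depended on the scaling of the libraries, and with median-of-ratios scaling Glioblastoma was called lower (log2 -0.23, adjusted p = 0.0239, with 0.000976 to 0.973 over all alternatives). In MIM-Astrocytes Atf3 was lower than in Astrocytes by a log2 difference of -2.10 (SE 0.09, 12.1-fold, adjusted p = 9.02e-09), against the direction of Atf4. Its difference between MIM-Astrocytes and NSC was small on this scale (log2 0.32, SE 0.09, adjusted p = 0.0103), and the authors' intervals reached 48.7% to 60.5% of the value in MIM-Astrocytes and 102% to 123% in NSC.

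Ddit3 (ENSMUSG00000025408.15, chromosome 10, 127290774 to 127296288, plus strand) encodes CHOP, a C/EBP-family protein downstream of ATF4. Glioblastoma had 107, 106 and 113 FPKM and Astrocytes 22.6, 25.1 and 20.6. MIM-Astrocytes had 12.8, 14.3 and 14.1 FPKM and NSC 12.3, 11.5 and 10.8. All Glioblastoma libraries were above 106 FPKM and all others below 25.1. Ddit3 was lower in MIM-Astrocytes than in Astrocytes (log2 -0.69, SE 0.08, 1.66-fold, adjusted p = 2.28e-05), as Atf3 was. The summed meningeal and ependymal markers given above were also lower there, and they were low in Glioblastoma, where Ddit3 was highest. A link between these markers and Ddit3 was not tested. The difference of MIM-Astrocytes from NSC was called narrowly (log2 0.24, SE 0.08, adjusted p = 0.0239) and lost the call when any of 4 libraries was left out (NSC 2 or 3, MIM-Astrocytes 2 or 3, adjusted p = 0.0557 to 0.0833, with 0.00896 to 0.0922 over all alternatives). Glioblastoma exceeded NSC 9.47-fold (log2 3.14, SE 0.08, adjusted p = 2.38e-10). The last bases of Ddit3 overlap the end of Mars on the opposite strand, a tRNA synthetase gene at 127 FPKM in Glioblastoma and 11.98 in NSC, and reads of that stretch are not separated. A shorter model of Ddit3 under another identifier was listed at 0 in all libraries.

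Cebpb (ENSMUSG00000056501.3, chromosome 2, 167688915 to 167690418, plus strand) encodes C/EBP beta, a binding partner of ATF4 and CHOP. It was the least abundant of the transcription factors in Glioblastoma, with 3.49, 4.53 and 5.36 FPKM. Astrocytes had 1.35, 0.976 and 0.724 FPKM, MIM-Astrocytes 0.348, 0.959 and 0.727, and NSC 0.659, 0.440 and 0.434. Glioblastoma stood apart from all others, and MIM-Astrocytes overlapped both Astrocytes and NSC. The Glioblastoma mean was 8.73 times that of NSC (log2 1.84, SE 0.17) and 4.39 times that of Astrocytes (log2 1.43, SE 0.17). The 3 differences among the other groups were not called (MIM-Astrocytes against Astrocytes log2 -0.27, SE 0.17, adjusted p = 0.197; against NSC log2 0.14, SE 0.17, adjusted p = 0.525). The former was called lower with a common sum over all genes (log2 -0.46, adjusted p = 0.0154, with 0.0154 to 0.562 over all alternatives). NSC against Astrocytes lay close to the threshold (log2 -0.41, SE 0.17, adjusted p = 0.0537). It was called in 12 alternatives, among them those without Glioblastoma library 1 or 3, Astrocytes library 3 or MIM-Astrocytes library 1 or 2 (adjusted p = 0.0325 to 0.0474, with 0.00253 to 0.183 over all alternatives). Cebpb overlaps Tmem189 on the opposite strand, which averaged 11.5 FPKM over the libraries, so its low values are uncertain.

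**Figure D1:**
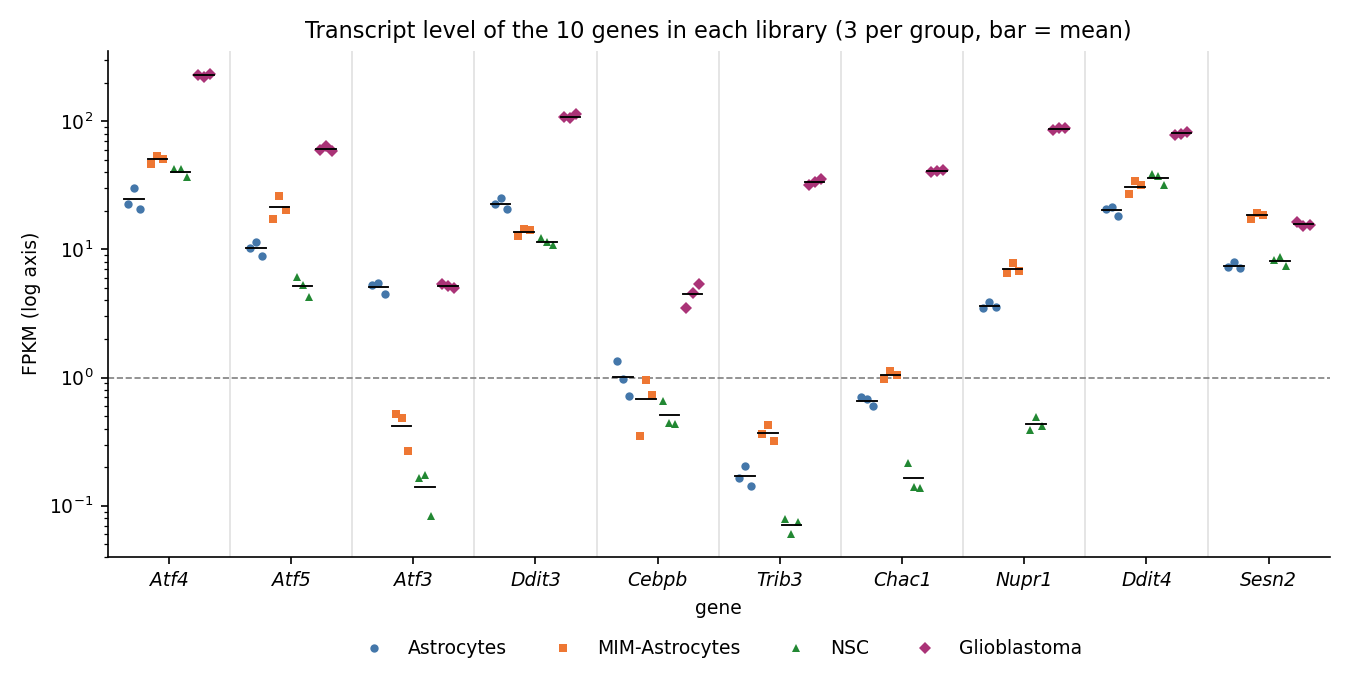
FPKM of the 10 genes on a log axis, with 3 points per group for the libraries and a bar at their mean; the dashed line is at 1 FPKM. Glioblastoma lies above every other group for 8 genes, shares the level of Astrocytes for Atf3 (means 5.18 and 5.09 FPKM) and lies just under MIM-Astrocytes for Sesn2 (15.74 and 18.46 FPKM). Trib3, Chac1 and Cebpb are among the 8 and met the filter only through the Glioblastoma libraries, so their place is a description. The share of all tested genes that lie highest in Glioblastoma was not counted.

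Trib3 (ENSMUSG00000032715.9, chromosome 2, 152337422 to 152344032, minus strand) encodes a pseudokinase that binds ATF4 and CHOP and dampens them. It had 32.0, 33.6 and 35.3 FPKM in Glioblastoma and remained under 0.5 FPKM elsewhere. MIM-Astrocytes had 0.364, 0.429 and 0.320 FPKM, Astrocytes 0.164, 0.203 and 0.142, and NSC 0.0784, 0.0603 and 0.0745. The 4 groups did not overlap. The Glioblastoma mean was 473 times that of NSC, the widest ratio among the 10 genes (log2 5.01, SE 0.05). The authors' intervals in NSC reached 145% to 185% of the value, so the size of that ratio is poorly known. They reached 92.3% to 99.7% in Astrocytes and 48.8% to 53.3% in MIM-Astrocytes. Trib3 was higher in MIM-Astrocytes than in Astrocytes by 2.19-fold, which is log2 0.23 on the scale tested (SE 0.05, adjusted p = 0.00360). That call was lost with quantile normalization (log2 0.07, adjusted p = 0.338) and with a filter at a mean of 5 FPKM (adjusted p = 0.0601), and its adjusted p ran from 0.000323 to 0.338 over all alternatives. NSC and Astrocytes differed by log2 -0.13 (SE 0.05, adjusted p = 0.0536), which missed the threshold and passed it in 6 alternatives (0.00104 to 0.258 over all).

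Chac1 (ENSMUSG00000027313.3, chromosome 2, 119351229 to 119354381, plus strand) encodes a cyclotransferase that degrades glutathione. It repeated the order of Trib3. Glioblastoma had 40.3, 41.3 and 41.5 FPKM and MIM-Astrocytes 0.971, 1.13 and 1.05. Astrocytes had 0.6996, 0.683 and 0.601 FPKM and NSC 0.216, 0.140 and 0.136. Again no groups overlapped. The Glioblastoma mean was 250 times that of NSC (log2 5.18, SE 0.05), where the authors' intervals reached 47.2% to 60.3% of the value. MIM-Astrocytes exceeded Astrocytes 1.59-fold (log2 0.30, SE 0.05, adjusted p = 0.000437), a call lost when libraries were scaled to a common sum over all genes (log2 0.16, adjusted p = 0.0740, the highest over the alternatives, with 0.000294 the lowest). NSC was below Astrocytes (log2 -0.51, SE 0.05, adjusted p = 6.15e-06).

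Nupr1 (ENSMUSG00000030717.9, chromosome 7, 126623249 to 126630861, minus strand) encodes a small chromatin-associated stress protein. It had the widest difference of the 10 on the log2(FPKM + 1) scale. Glioblastoma had 86.1, 88.5 and 88.8 FPKM and MIM-Astrocytes 6.54, 7.82 and 6.85. Astrocytes had 3.49, 3.89 and 3.53 FPKM and NSC 0.392, 0.495 and 0.419. All 4 groups were separate. The excess of Glioblastoma over NSC was log2 5.95 (SE 0.06, 202-fold, adjusted p = 1.76e-12). Nupr1 in MIM-Astrocytes was 1.94-fold above Astrocytes (log2 0.80, SE 0.06, adjusted p = 1.77e-06) and 16.2-fold above NSC (log2 2.49, SE 0.06, adjusted p = 2.15e-09). The authors' intervals in NSC reached 88.4% to 103% of the value, so the sizes of both ratios to NSC are poorly known.

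Ddit4 and Sesn2 encode inhibitors of mTORC1, the kinase complex that drives growth when nutrients are plentiful; the Sesn2 product is also known as a leucine sensor. Ddit4 (ENSMUSG00000020108.4, chromosome 10, 59949669 to 59951834, minus strand) had 78.9, 79.5 and 83.0 FPKM in Glioblastoma and 38.9, 37.4 and 32.1 in NSC. It had 26.9, 34.1 and 31.8 FPKM in MIM-Astrocytes and 20.8, 21.5 and 18.1 in Astrocytes. Only MIM-Astrocytes and NSC overlapped. Ddit4 was higher in Glioblastoma than in NSC by log2 1.14 (SE 0.10, 2.22-fold, adjusted p = 2.94e-06) and in MIM-Astrocytes than in Astrocytes by 0.59 (SE 0.10, 1.53-fold, adjusted p = 0.000500). NSC exceeded Astrocytes by 0.81 (SE 0.10, adjusted p = 3.66e-05), so Ddit4 shared with Atf4 the place of Astrocytes at the bottom. MIM-Astrocytes and NSC missed the threshold (log2 -0.22, SE 0.10, adjusted p = 0.0883), and MIM-Astrocytes were called lower when library 2 of MIM-Astrocytes or library 3 of NSC was left out (adjusted p = 0.0452 and 0.0332, with 0.000175 to 0.298 over all alternatives).

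Sesn2 (ENSMUSG00000028893.8, chromosome 4, 132492032 to 132510501, minus strand) was the only one of the 10 whose mean was highest in MIM-Astrocytes, with 17.4, 19.3 and 18.7 FPKM. Glioblastoma had 16.4, 15.3 and 15.4 FPKM, NSC 8.23, 8.79 and 7.40, and Astrocytes 7.35, 7.94 and 7.11. Every MIM-Astrocytes library was above every other library, and NSC and Astrocytes overlapped (log2 0.11, SE 0.07, adjusted p = 0.167; without NSC library 3, 0.0412). Sesn2 was higher in MIM-Astrocytes than in Astrocytes by log2 1.201 (SE 0.07, 2.47-fold, adjusted p = 9.39e-08), the largest rise of a member in that comparison. It was higher in Glioblastoma than in NSC by 0.87 (SE 0.07, 1.93-fold, adjusted p = 9.52e-07), the smallest difference of a member in that one. The excess of MIM-Astrocytes over Glioblastoma was small (log2 0.22, SE 0.07, 1.17-fold, adjusted p = 0.0144) and lost its call without library 2 of MIM-Astrocytes (adjusted p = 0.0528, with 1.78e-05 to 0.0605 over all alternatives). Sesn2 has Gm12981 within its bounds, which did not exceed 1.44 FPKM in any library.

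Counts in the Glioblastoma comparisons are given for the 7 members that met the filter without the Glioblastoma libraries. All 7 were higher in Glioblastoma than in NSC, with a median log2 difference of 2.47 against 0.19 over all tested genes. In that comparison 44.8% of all tested genes were called higher and 25.1% lower. Against Astrocytes 6 of the 7 were higher in Glioblastoma and none lower, with Atf3 not called, where 47.0% of all genes were higher and 31.3% lower. The median was 2.21 for the 7 members and 0.23 for all genes. In MIM-Astrocytes 1 of the 7, Sesn2, was higher than in Glioblastoma and 6 were lower (all genes 28.3% higher, 41.5% lower), with medians of -2.13 and -0.13. These comparisons share their groups, so they are not independent of each other.

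Members moved both ways in MIM-Astrocytes against Astrocytes: 7 were higher (Atf4, Atf5, Trib3, Chac1, Nupr1, Ddit4 and Sesn2), 2 were lower (Atf3 and Ddit3), and Cebpb was not called. Of all tested genes 34.8% were higher and 26.6% lower. The median difference of the members was 0.45 and that of all genes 0.09, and only Atf4 and Sesn2 rose by more than 1 on the log2(FPKM + 1) scale. By the ratio of mean FPKM, Trib3 rose 2.19-fold, Atf5 2.10-fold and Atf4 2.06-fold. Ratios of single libraries ran from 1.58 to 3.03, 1.53 to 2.96 and 1.55 to 2.58, so these genes are not ranked. The Trib3 ratio rests on means of 0.371 and 0.170 FPKM. Markers of other cell types differed between these groups too. The 6 neural stem and progenitor markers summed to 136 to 162 FPKM in Astrocytes and 350 to 375 in MIM-Astrocytes (5 higher, 1 lower). The 6 oligodendrocyte lineage markers summed to 35.5 to 41.7 and 107 to 120 (3 higher, 1 lower). The 6 neuronal markers summed to 104 to 110 and 169 to 189, but Map2 alone had 102 FPKM in Astrocytes. Of 4 neuronal markers tested, 1 was higher and 1 lower, with differences from -1.875 to 0.795. Only 1 neuronal marker averaged at least 1 FPKM in MIM-Astrocytes, against 3 in Astrocytes. None of these markers was at 0 in every library of either group, and their part in the members' differences was not tested. Against NSC, 7 members were higher in MIM-Astrocytes (Atf5, Atf3, Ddit3, Trib3, Chac1, Nupr1 and Sesn2) and none lower, with Atf4, Ddit4 and Cebpb not called. There 31.0% of all genes were higher and 24.9% lower, and the medians were 0.34 and 0.02. The calls of Atf3, Trib3 and Chac1 rest on NSC means of 0.139, 0.0711 and 0.164 FPKM. Of the 7 members that met the filter without the Glioblastoma libraries, 5 were higher and 0 lower than in NSC. The same 7 had 5 higher and 2 lower in MIM-Astrocytes against Astrocytes. In NSC against Astrocytes 2 members were higher (Atf4 and Ddit4) and 5 lower (Atf5, Atf3, Ddit3, Chac1 and Nupr1), beside 37.7% and 33.4% of all genes, with medians of -0.46 and 0.07. With a common sum over all genes 8 members were lower there, with Sesn2, Trib3 and Cebpb added to the 5.

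The scaling of the libraries bears on these shares. FPKM were used as deposited, and the share of called genes that were higher in Glioblastoma than in NSC was 64.1%, against 51.6% with median-of-ratios scaling, 52.8% with a common sum over all genes, 47.0% with a common sum over protein-coding genes and 52.7% with quantile normalization. In Glioblastoma against Astrocytes it was 60.05%, against 49.2% with median-of-ratios scaling and 36.9% with a common sum over all genes. That common sum also moved it from 56.7% to 32.1% in MIM-Astrocytes against Astrocytes, from 53.0% to 32.5% in NSC against Astrocytes and from 40.5% to 55.6% in MIM-Astrocytes against Glioblastoma. A common sum over protein-coding genes moved it from 55.4% to 42.4% in MIM-Astrocytes against NSC. The median of all genes moved by -0.16 to -0.49 in Glioblastoma against Astrocytes over the 4 scalings and by -0.16 to -0.25 in Glioblastoma against NSC. The common sum over all genes moved it by -0.26 in MIM-Astrocytes against Astrocytes and by -0.31 in NSC against Astrocytes. The 7 members counted above kept their higher call in Glioblastoma against NSC under each of these scalings.

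**Figure D2:**
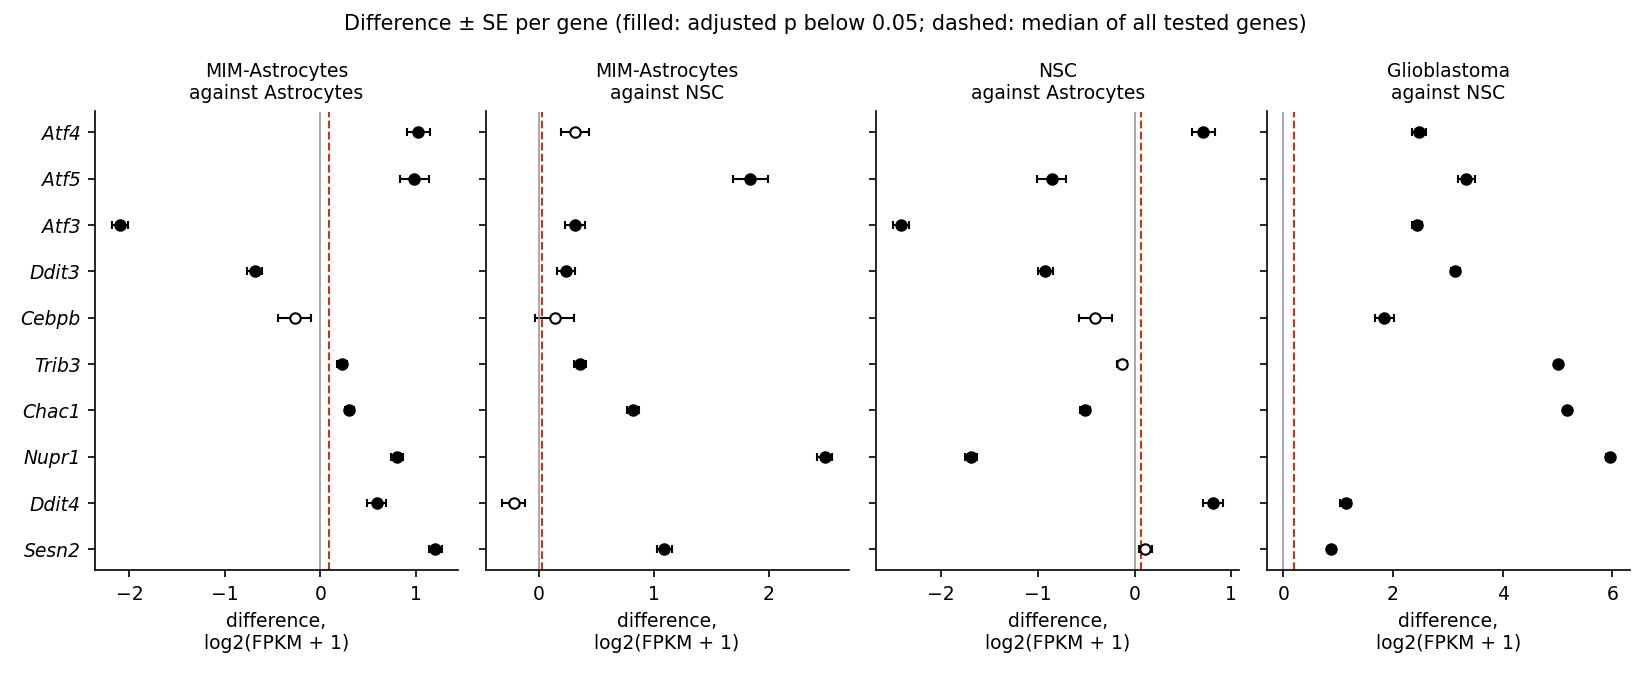
Difference of log2(FPKM + 1) with its SE for the 10 genes in 4 comparisons (each panel has its own horizontal axis); filled points are called at an adjusted p below 0.05, and the dashed line is the median of all tested genes. In Glioblastoma against NSC all points lie right of the line, from 0.87 for Sesn2 to 5.95 for Nupr1. There Trib3, Chac1 and Cebpb are a description, since they met the filter only through the Glioblastoma libraries, and their fill is no test result. In MIM-Astrocytes against Astrocytes Atf3 (-2.10) and Ddit3 (-0.69) lie left of 0.

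The kinases of eIF2, its subunits, its phosphatase, its exchange factor eIF2B and the regulators Dnajc3, Impact and Gcn1l1 stand upstream of the 10 genes. Of 17 genes of this list tested, 15 were higher and 2 lower in Glioblastoma than in NSC (median 0.62), and 5 were higher and 4 lower in MIM-Astrocytes than in Astrocytes (median -0.03). The latter counts lie near or below the shares of all genes (34.8% and 26.6%). They became 1 higher and 9 lower with a common sum over all genes. In Glioblastoma against NSC the shares of all genes were 44.8% higher and 25.1% lower, and the lists below stand beside the same shares. Unlike the member counts, the lists were not limited to genes that met the filter without the Glioblastoma libraries. Ppp1r15a, the stress-induced phosphatase subunit that restores translation, had 6.79 ± 0.153 FPKM in MIM-Astrocytes and 17.8 ± 4.30 in Astrocytes (log2 -1.25, SE 0.13, adjusted p = 1.16e-05), the direction of Ddit3. Ppp1r15b, its constitutive counterpart, had 17.4 ± 0.939 and 9.22 ± 0.136 FPKM (log2 0.84, SE 0.05, adjusted p = 1.24e-07). Dnajc3, an ER co-chaperone that inhibits eIF2 kinases, fell by 1.03 on the log2 scale, and Eif2ak2, the kinase that senses double-stranded RNA, fell by 0.22. The eIF2 subunit genes Eif2s2 and Eif2s3x rose by 0.56 and 0.51.

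Among the genes that ATF4 is known to raise, the enzymes of amino acid synthesis were higher in Glioblastoma than in NSC in 13 of 13 cases (median 3.06), and in MIM-Astrocytes than in Astrocytes in 11 of 13, with none lower (median 1.11). Asns, the asparagine synthetase often used as a readout of ATF4, had 320 ± 15.2 FPKM in Glioblastoma, 10.7 ± 1.56 in NSC, 15.0 ± 1.29 in Astrocytes and 37.2 ± 0.960 in MIM-Astrocytes; it was named after its values were seen. Its order of groups is that of Trib3, Chac1, Nupr1 and Atf5. The largest rises in MIM-Astrocytes were those of the proline synthesis enzymes Aldh18a1 (log2 2.75, SE 0.07) and Pycr1 (2.50, SE 0.09), then of the mitochondrial folate enzyme Mthfd2 (1.74, SE 0.14, adjusted p = 1.62e-06). Mthfd2 reached 95.5 ± 1.52 FPKM in Glioblastoma and 1.19 ± 0.452 in NSC.

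Of 13 ATF4 targets that act on tRNA, which are synthetases and the tRNA export gene Xpot, 13 were higher in Glioblastoma than in NSC (median 2.27) and 12 were higher and none lower in MIM-Astrocytes than in Astrocytes (median 0.80). The synthetases of cysteine, methionine and tyrosine led in MIM-Astrocytes, with log2 differences of 1.49 for Cars, 1.10 for Mars and 1.04 for Yars. Of 9 amino acid carriers tested, 7 were higher and 1 lower in Glioblastoma than in NSC (median 2.47). In MIM-Astrocytes 6 rose, led by the glycine carrier Slc6a9 (log2 2.72), the cystine carrier Slc7a11 (1.87) and the cationic amino acid carrier Slc7a3 (1.77), and 3 fell. Those 3 were Slc3a2, the shared heavy chain of several carriers (log2 -0.995), the glutamine carrier Slc1a5 (-0.37) and Slc38a2 (-0.35), a carrier of small neutral amino acids.

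The other targets of ATF4 and CHOP were more mixed. In Glioblastoma 12 of 16 were higher and 3 lower than in NSC (median 1.16), beside 44.8% and 25.1% of all tested genes. The 12 include Fgf21, which was at 0 in all NSC libraries. In MIM-Astrocytes 8 were higher and 3 lower than in Astrocytes (median 0.24), beside 34.8% and 26.6% of all tested genes. Gadd45a, a growth arrest gene, had 56.6 ± 4.86 FPKM in Astrocytes and 7.91 ± 0.965 in MIM-Astrocytes (log2 -2.70, SE 0.09, adjusted p = 2.29e-09), so it shared the direction of Atf3 and Ddit3. Mknk2 and Tes fell by 0.59 and 0.51 on the log2 scale. Pmaip1, which encodes the cell death protein NOXA, rose by 1.54, the translation repressor Eif4ebp1 by 1.27 and the lipoprotein receptor Vldlr by 1.21. Fgf21, a stress hormone, was listed at 0 in all NSC and Astrocytes libraries and had 3.42 ± 0.131 FPKM in Glioblastoma; it was named after its values were seen.

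The ATF6 and IRE1 arms respond to ER stress, and their list holds genes of both arms and ER chaperones. Transcript levels per gene do not measure the activity of either arm. The list had 13 of 22 genes higher and 3 lower in Glioblastoma than in NSC (median 0.43, from -0.67 for Dnajb9 to 1.84 for Herpud1). Against Astrocytes 7 were higher and 7 lower in Glioblastoma (median 0.00). With median-of-ratios scaling 5 and 11 were lower in these 2 comparisons. In MIM-Astrocytes 4 were higher and 6 lower than in Astrocytes (median -0.08), and 12 were lower with that scaling. Hspa5, the chaperone BiP, had 112 ± 6.48 FPKM in Glioblastoma and 112 ± 9.59 in NSC (log2 -0.01, SE 0.09, adjusted p = 0.943) and was named after its values were seen. In MIM-Astrocytes Sdf2l1, Hsp90b1 and Pdia3 rose by 0.74, 0.37 and 0.19 on the log2 scale, and Xbp1, Pdia4 and Ern1 fell by 0.65, 0.55 and 0.53. The rise of Pdia3 turned to -0.14 with a common sum over all genes and to -0.11 with quantile normalization.

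**Figure D3:**
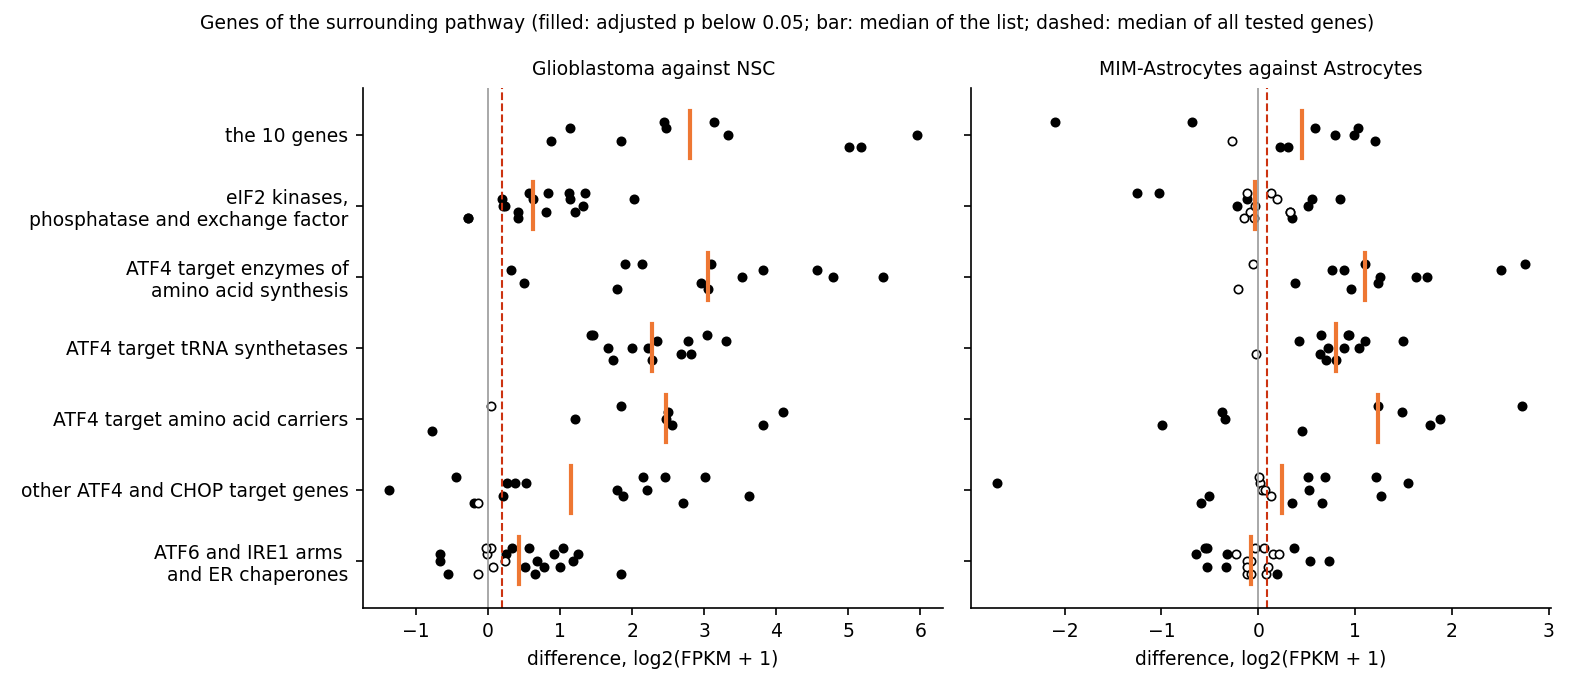
Difference of log2(FPKM + 1) for the 10 genes and for 6 surrounding lists in Glioblastoma against NSC (left) and MIM-Astrocytes against Astrocytes (right); filled points are called, orange bars are list medians and the dashed line is the median of all tested genes. Among the 6 lists, synthesis enzymes, tRNA synthetases (with Xpot) and carriers lie furthest right on both sides. Their medians are 3.06, 2.27 and 2.47 on the left and 1.11, 0.80 and 1.24 on the right. The list of the ATF6 and IRE1 arms and ER chaperones lies near 0 on the right (-0.08). Among the 10 genes on the left, Trib3, Chac1 and Cebpb met the filter only through the Glioblastoma libraries, so their fill is no test result.

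Relatives of the members did not follow them throughout. Trib2, a pseudokinase like Trib3 but expressed in progenitors, had 169 ± 9.81 FPKM in Glioblastoma, 82.4 ± 5.73 in NSC, 58.5 ± 3.87 in MIM-Astrocytes and 3.37 ± 0.224 in Astrocytes. NSC, where Trib3 was lowest, was thus high in Trib2 (NSC against Astrocytes log2 4.25, SE 0.07, adjusted p = 1.78e-11). Sesn1, a p53-regulated relative of Sesn2, was lower in MIM-Astrocytes than in Astrocytes (24.7 ± 1.78 and 51.7 ± 4.19 FPKM, log2 -1.04, SE 0.08, adjusted p = 1.48e-06), and Sesn3 was higher (66.3 ± 3.56 and 32.8 ± 1.45 FPKM, log2 0.99). Trib1 rose by 0.77. Of 8 relatives and partners tested, 4 were higher and 1 lower in that comparison (median 0.25), and 4 were higher and 4 lower in Glioblastoma than in NSC (median 0.16). Among 13 related transcription factors, bZIP proteins but for the CCAAT-binding Cebpz, 3 were higher and 7 lower in MIM-Astrocytes (median -0.41; 0 higher with a common sum over all genes), and 8 were higher and 1 lower in Glioblastoma than in NSC (median 0.37). Cebpd fell by 2.13 on the log2 scale in MIM-Astrocytes, Nfe2l2 by 0.92 and Cebpa by 0.85, while Creb1 rose by 0.53, Cebpz by 0.33 and Atf2 by 0.31.

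For each member the 2 protein-coding genes with the most similar pattern were taken by Pearson's r of log2(FPKM + 1) over the 12 libraries, from 12520 genes. These values are descriptive, since the 12 libraries form 4 groups and the high Glioblastoma level alone gives many genes a high r. Nupr1 was nearest to Aldh1l2 (r = 0.998) and Pck2 (0.996), which are mitochondrial enzymes of folate and of gluconeogenesis. Ddit4 was nearest to Kars (0.999) and Rpl29 (0.997). Trib3 was nearest to Zc3hav1 and Hoxa5 (both 0.9996), and Chac1 to Fzd1 and Zc3hav1 (both 0.998). Atf3 was nearest to Tm4sf1 (0.996) and Adamts1 (0.994), which were likewise at 31.4 and 34.4 FPKM in Astrocytes and at 0.595 and 3.00 in MIM-Astrocytes. Sesn2 was nearest to Nup35 (0.992) and Sipa1l2 (0.991). Atf4 was nearest to Dhx30 (0.997) and Cd302 (0.996), Ddit3 to Selm and Mtfr1 (both 0.997), Atf5 to Sqle (0.993) and Fam114a2 (0.990), and Cebpb to Gnaz (0.986) and Rsph3a (0.980). Between members r ran from -0.07 for Atf3 with Sesn2 to 0.996 for Chac1 with Trib3.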

How the data were processed

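Per the submitters' processing notes, the authors computed values with Cufflinks on GRCm38. The aligner, versions, strandedness and filters are not given in the sources used here. Per the file headers, the deposited values are FPKM per gene, with an interval and a status, in 1 table for each of the 12 libraries. Each table had 53989 lines for 53932 identifiers, and 45 identifiers stood on more than 1 line, whose values were summed. GENCODE M21 held 99.9% of all identifiers and supplied biotypes and overlaps. The sum of FPKM per library ran from 514728 to 979106, and 14461 to 14919 genes reached 1 FPKM. The listed genes Slc7a5, Nupr2, Castor1 and Castor2 were matched to no line and not analysed here.

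Genes at 1 FPKM or more in at least 3 libraries and with status OK in all 12 were tested (16982). On log2(FPKM + 1), limma 3.58.1 (R 4.3.3) estimated 1 mean for each group from all 12 libraries together, leaving 8 residual degrees of freedom, with the trended form of its variance prior. All 6 comparisons of groups were tested, two-sided, with Benjamini-Hochberg adjustment over all tested genes of each, and "called" means an adjusted p below 0.05. The fit was tested on simulated data. Promoter letters came from RefSeq (GRCm38.p6). Further software was Python 3.11.15 with pandas 2.3.3, NumPy 2.4.6 and matplotlib 3.10.9.

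The 10 members and the 8 lists of pathway genes and related factors were chosen with earlier results of these data known. All members are named. From each list the text names up to 3 called genes each way with the largest difference in MIM-Astrocytes against Astrocytes and groups that do not overlap. For each member it names the 2 genes of nearest pattern. The alternatives tried were a pseudocount of 0.1 or 0.5, a fit without the filter, a filter at a mean of 5 FPKM, 4 scalings (median-of-ratios, quantile, and a common sum over all or over protein-coding genes), the 2 groups compared alone, a replicate block over all 12 or over 6 libraries, and each library left out in turn.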

Additional observations from a re-analysis of the deposited data

How the results depend on the processing

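Of the 60 differences of members, 49 kept their direction and their side of the threshold in every alternative, and 11 did not. The 49 include every Glioblastoma difference of Trib3, Chac1 and Cebpb. These genes met the filter only through the Glioblastoma libraries, so those differences do not speak for robustness. Counts of members changed as follows. With a mean of at least 5 FPKM, which leaves Atf3 and Cebpb untested, 1 member was lower in MIM-Astrocytes against Astrocytes. With a common sum over all genes 8 were lower in NSC against Astrocytes and 1 in Glioblastoma against Astrocytes, where median-of-ratios scaling also gave 1. In MIM-Astrocytes against NSC 1 was lower with median-of-ratios scaling, with a common sum over protein-coding genes and with quantile normalization, and 0 to 1 with a library left out (1 without NSC library 3 or MIM-Astrocytes library 2). In MIM-Astrocytes against Glioblastoma 0 were higher with a replicate block over 6 libraries (Sesn2, adjusted p = 0.0605), and 0 to 1 with a library left out (0 without MIM-Astrocytes library 2).

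Atf3 in Glioblastoma against Astrocytes became -0.23 with median-of-ratios scaling, -0.49 with a common sum over all genes, -0.14 with a common sum over protein-coding genes and -0.18 with quantile normalization, and ran from -0.051 to 0.074 with a library left out (-0.051 without Astrocytes library 3). Sesn2 in NSC against Astrocytes became -0.25 with a common sum over all genes (adjusted p = 0.0342). In MIM-Astrocytes against Astrocytes that common sum gave -0.14 for Pdia3 and -0.012 for Atf2, and quantile normalization gave -0.11 for Pdia3. The cause of these changes was not tested.

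Replicate numbers are not said to pair the libraries. Deviations from the group means correlated across genes at -0.058 to 0.097 for the 18 pairs with the same number and at -0.121 to 0.074 for the 36 others. Same-number pairs ran from 0.044 to 0.097 in NSC against Astrocytes and from -0.053 to -0.0024 in Glioblastoma against NSC. Such values cannot settle whether libraries were paired. Beside Sesn2 above, a replicate block over 6 libraries ended the call of Ddit3 in MIM-Astrocytes against NSC (adjusted p = 0.0922) and made one of Cebpb in NSC against Astrocytes (0.0128), and a block over 12 libraries made one of Atf4 in MIM-Astrocytes against NSC (0.0440). Of 2208 counts for the lists under the alternatives, 114 moved by more than 1.5 times, among them the genes of the eIF2 list higher in MIM-Astrocytes, from 5 to 1, and lower, from 4 to 9, with a common sum over all genes. Over all genes, that sum changed the calls of Glioblastoma against Astrocytes from 7983 higher and 5311 lower to 4673 and 7992, those of MIM-Astrocytes against Astrocytes from 5911 and 4512 to 3203 and 6788, and the higher calls of NSC against Astrocytes from 6407 to 3784. The number of genes tested was 10289 with a mean of at least 5 FPKM and 37662 with no filter, and the calls moved with it: the lower ones to 2928 and 8062 in Glioblastoma against Astrocytes, to 2304 and 6427 (from 4265) in Glioblastoma against NSC, and, with the mean of 5, to 2583 in MIM-Astrocytes against Astrocytes, 2558 (from 4228) in MIM-Astrocytes against NSC and 3610 (from 5680) in NSC against Astrocytes, with the higher ones at 4135 there and at 2870 (from 4802) in MIM-Astrocytes against Glioblastoma. Depth is unknown, and the values in NSC of Trib3, Atf3 and Nupr1, all below 1 FPKM, have the widest intervals among the members.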
